A study of Rattus norvegicus with 18 samples.

Results

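The genes described here are markers of the lung endothelium, the cell layer that lines blood and lymph vessels, in rats instilled repeatedly with a multiwalled carbon nanotube (MWCNT). A list of 35 gene symbols was matched to the gene names of the deposited tables, and 33 were found among 22081 genes. *Pecam1* was not matched and is not analysed here, and *Car4* is listed under its older symbol *Ca4*, so *Ca4* is described beside the 33 genes but is not counted with them. The samples were 18 male F344/DuCrlCrlj rats, 3 control and 3 MWCNT-treated rats at each of Years 0.5, 1, and 2, which were weeks 26, 52, and 104 of the experiment and ages of 35, 61, and 113 weeks. The treated rats received MWNT-7 into the trachea at 0.5 mg/kg every 4 weeks from 9 weeks of age, and the control rats received the vehicle, saline with Tween 80, by the same route. RNA came from small pieces of the accessory lobe. Tissue with a tumour visible at necropsy was left out by the authors, who also checked stained sections of the remaining lobe for tumours. The values thus describe lung pieces with all their cell types mixed, which may still hold hyperplasias or small early lesions. Each library was 1 animal, and the replicate numbers pair no animals.

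Endothelial cells hold the vessel wall together with a cadherin and claudin junction, sense flow and growth factors through receptors such as Tek and S1pr1, and keep their identity through ETS and SOX family transcription factors. The alveolar capillary bed, where gas is exchanged, makes up most of the endothelium of the lung and has 2 kinds of cell, large aerocytes that express *Car4*, *Ednrb*, and *Apln*, and general capillary cells that express *Aplnr* and *Plvap*. Arteries are marked by the gap junction genes *Gja4* and *Gja5* and by *Sox17*, veins by *Vwf* and *Emcn*, and lymphatic vessels by *Lyve1* and *Prox1*. In whole lung, most of these markers are shared to some degree between vessel types.

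The libraries held 13297643 to 17868851 gene counts each for control and 14661589 to 21130757 for MWCNT, and none was a copy of another. The surfactant gene *Sftpc*, a defining marker of lung, was at 19293 to 21304 TPM in the control rats of Year 0.5. TPM is the authors' transcript level scaled for gene length and for the size of the library. The log2 fold changes and false discovery rates (FDR) come from the quasi-likelihood test of edgeR on the counts of the 6 rats of a year, with TMM scaling and adjustment over all tested genes, and a gene is called lower or higher at an FDR below 0.05.

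With MWCNT, 30 of the 33 endothelial genes fell at Year 0.5, 29 at Year 1, and 29 at Year 2. Among all genes tested, 18.6%, 19.6%, and 24.0% fell at Years 0.5, 1, and 2. None rose at Year 0.5 or Year 1 and 1, *Fli1*, was called higher at Year 2, beside 20.2%, 21.6%, and 25.2% of all genes. The median log2 fold change of the 33 genes was -0.82 at Year 0.5, -0.74 at Year 1, and -1.15 at Year 2, and that of all genes tested was -0.021, 0.00053, and -0.011. With the further criterion of a fall by more than 2-fold, 9, 3, and 23 of the 33 genes passed, beside 3.03%, 4.09%, and 8.22% of all genes. Scaling by library size alone moved the median of all genes to -0.12, -0.13, and -0.18 and that of the 33 genes to -0.92, -0.87, and -1.32, so the gap between them was about as wide under both scalings.

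The genes that were not called were few and recurred. *Nos3* and *Prox1* were not called at Year 0.5 or Year 2, *Prox1*, *Gja4*, and *Emcn* were not called at Year 1, *Fli1* was not called at Year 0.5 or Year 1, and *Emcn* was not called at Year 2. In TPM, all 3 MWCNT-treated rats lay below all 3 control rats for 31, 32, and 31 of the 33 genes at Years 0.5, 1, and 2, beside 40.7%, 46.8%, and 45.7% of all genes tested. These shares of all genes exceed the 18.6%, 19.6%, and 24.0% called lower on counts. A gene with separate groups in TPM thus need not be called lower. Over the whole experiment, 27 of the 33 genes had all 9 treated rats below all 9 control rats, beside 20.6% of the 14108 genes tested at each year. The other 6 were *Fli1*, *Sox7*, *Nos3*, *Ednrb*, *Gja4*, and *Prox1*. In bulk tissue, fewer endothelial cells and less RNA of a gene per endothelial cell cannot be told apart.

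**Figure D1:**
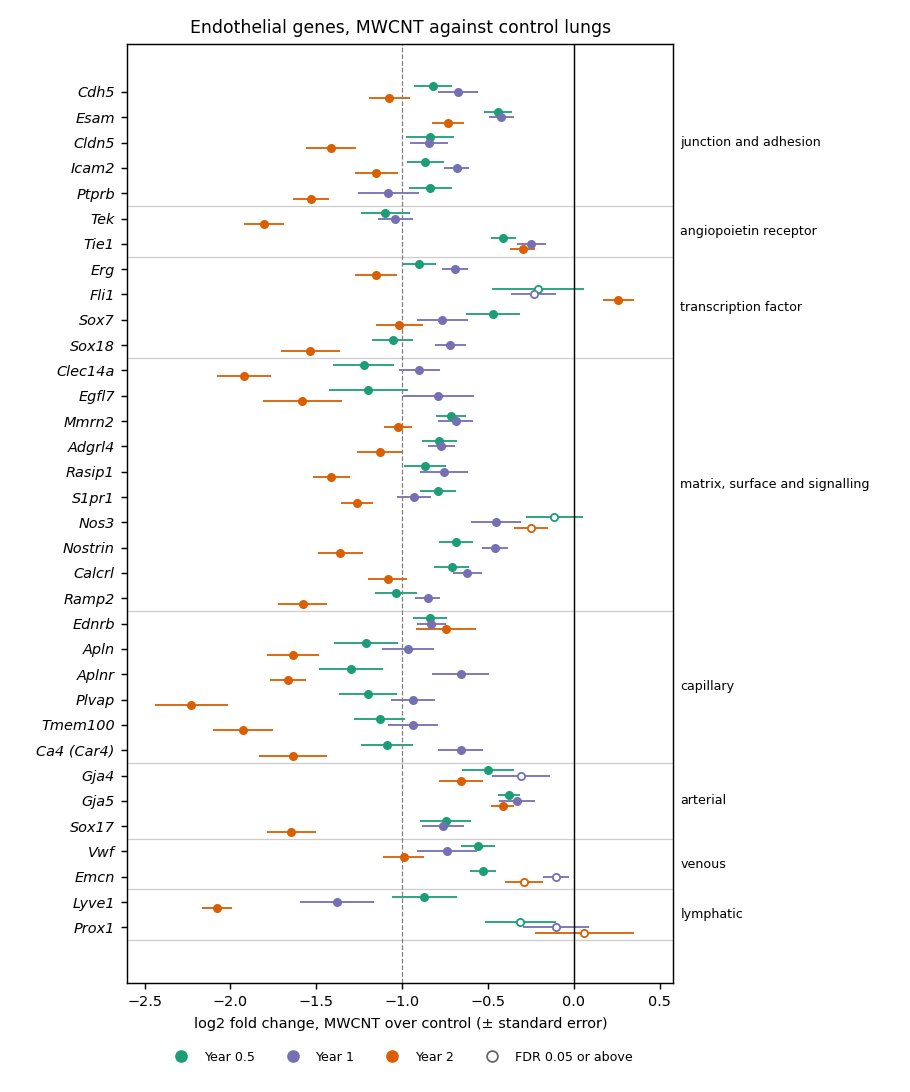
Log2 fold change of each endothelial gene, MWCNT over control, with its standard error (x axis), by gene and role (y axis) at Years 0.5, 1, and 2; open points have an FDR of 0.05 or above and the dashed line marks a 2-fold fall. Nearly all points lie left of 0, and the Year 2 points of *Plvap*, *Lyve1*, *Tmem100*, and *Clec14a* lie furthest left, between -2.23 and -1.92.

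**Figure D2:**
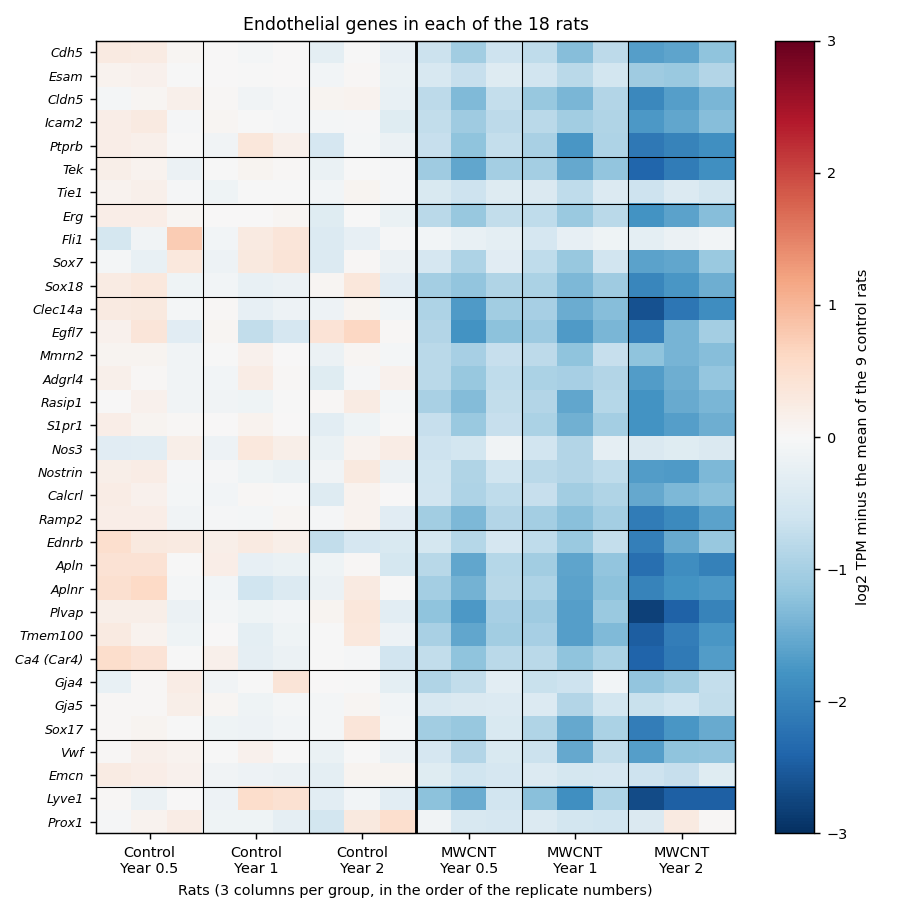
Level of each endothelial gene (rows, grouped by role) in each of the 18 rats (columns), as log2 TPM minus the mean over the 9 control rats (colour scale). The 9 control columns vary widely in some rows, among them *Fli1* (42.9 to 105 TPM) and *Egfl7* (221 to 562 TPM). The 9 MWCNT columns are mostly blue, and the 3 MWCNT columns of Year 2 are the darkest for most rows, with *Fli1*, *Nos3*, and *Prox1* as pale rows.

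The 5 ETS and SOX factors among the genes, *Erg* and *Fli1* of the ETS family and *Sox7*, *Sox17*, and *Sox18* of the SOX family, bind short DNA words that recur in endothelial promoters. Promoters of 18 of the 35 listed genes were found in a RefSeq table (build GRCr8, 250 bases before to 50 after the start of the gene, 300 in all). The ETS letters AGGAAG or CGGAAG stood on either strand in 11 of these 18 (61.1%) and in 45.9% of 27457 rat promoters of the same length. The SOX letters AACAAT or ACAATG, which overlap in the run AACAATG, stood in 4 of 18 (22.2%) and in 19.6% of all promoters. A match is a description of letters and not a binding site. The 6 promoters below are shown 5′ to 3′ on the strand of the gene, with ETS and SOX letters of either strand in capitals. *Plvap*, *Lyve1*, and *Apln* were chosen as genes with deep falls at Year 2 and *Gja5*, *Emcn*, and *Nos3* as genes with shallow ones. Their positions are chr16:18231230-18231529, chr1:174410928-174411227, and chrX:132091197-132091496, all on the minus strand, chr2:187290977-187291276 and chr2:228564289-228564588 on the plus strand, and chr4:11706532-11706831 on the minus strand.
Plvap: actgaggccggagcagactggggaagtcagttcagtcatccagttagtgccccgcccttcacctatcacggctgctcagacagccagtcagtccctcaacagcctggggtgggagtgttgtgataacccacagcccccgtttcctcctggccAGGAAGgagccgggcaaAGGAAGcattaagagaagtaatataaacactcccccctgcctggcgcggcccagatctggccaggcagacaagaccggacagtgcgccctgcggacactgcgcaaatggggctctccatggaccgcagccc
Lyve1: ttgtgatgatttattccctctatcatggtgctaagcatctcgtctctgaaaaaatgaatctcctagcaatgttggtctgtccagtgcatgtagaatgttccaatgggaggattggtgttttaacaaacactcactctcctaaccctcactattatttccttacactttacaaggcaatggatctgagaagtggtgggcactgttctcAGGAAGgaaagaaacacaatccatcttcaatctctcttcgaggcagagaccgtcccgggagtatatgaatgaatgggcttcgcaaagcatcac
Apln: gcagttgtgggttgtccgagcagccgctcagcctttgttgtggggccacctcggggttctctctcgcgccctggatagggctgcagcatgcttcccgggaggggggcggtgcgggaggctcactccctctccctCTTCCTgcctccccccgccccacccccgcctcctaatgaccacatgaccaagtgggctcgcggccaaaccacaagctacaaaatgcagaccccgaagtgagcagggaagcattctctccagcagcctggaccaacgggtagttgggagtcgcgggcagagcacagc
Gja5: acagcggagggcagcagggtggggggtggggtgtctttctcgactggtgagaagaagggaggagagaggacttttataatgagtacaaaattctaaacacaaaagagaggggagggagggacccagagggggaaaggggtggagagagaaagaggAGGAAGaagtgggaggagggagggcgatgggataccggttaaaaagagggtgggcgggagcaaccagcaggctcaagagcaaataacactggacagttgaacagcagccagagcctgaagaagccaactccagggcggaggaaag
Emcn: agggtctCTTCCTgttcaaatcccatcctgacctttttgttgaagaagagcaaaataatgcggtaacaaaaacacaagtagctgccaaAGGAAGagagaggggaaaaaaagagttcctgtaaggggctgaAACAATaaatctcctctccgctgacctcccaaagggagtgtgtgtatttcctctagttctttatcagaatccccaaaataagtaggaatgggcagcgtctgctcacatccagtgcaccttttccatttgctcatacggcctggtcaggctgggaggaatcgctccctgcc
Nos3: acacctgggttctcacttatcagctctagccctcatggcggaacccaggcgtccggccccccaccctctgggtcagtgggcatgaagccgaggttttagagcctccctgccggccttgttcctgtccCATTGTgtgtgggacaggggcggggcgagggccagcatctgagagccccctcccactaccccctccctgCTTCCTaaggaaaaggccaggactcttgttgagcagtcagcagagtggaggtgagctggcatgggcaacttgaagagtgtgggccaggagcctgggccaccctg
All 6 windows hold ETS letters, in 1 or 2 places, and those of *Emcn* and *Nos3* also hold SOX letters once.

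Of the junction and adhesion genes, all 5 found fell at every year. VE-cadherin (*Cdh5*), the cadherin of the endothelial junction, and claudin 5 (*Cldn5*), its tight junction claudin, fell together with the adhesion genes *Icam2* and *Esam* and with *Ptprb*, a receptor phosphatase that acts on VE-cadherin and Tek. The median log2 fold change of the 5 genes was -0.83, -0.68, and -1.15 at Years 0.5, 1, and 2.

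*Cdh5* was at 498, 491, and 432 TPM in the control rats at Year 0.5, at 413, 394, and 416 TPM at Year 1, and at 337, 411, and 349 TPM at Year 2. MWCNT-treated rats had *Cdh5* at 263, 199, and 268 TPM at Year 0.5, at 245, 169.5, and 240.3 TPM at Year 1, and at 131, 139, and 179.6 TPM at Year 2. The groups did not overlap at any year, and *Cdh5* fell by 0.82 ± 0.11, 0.67 ± 0.11, and 1.07 ± 0.12 on the log2 scale (SE, n = 3 rats a group; FDR 0.000588, 0.00181, and 9.51e-05). *Cldn5* was at 1144, 1227, and 1322 TPM in the control rats at Year 0.5, at 1221, 1097, and 1151 TPM at Year 1, and at 1247, 1286, and 1017 TPM at Year 2. MWCNT-treated rats had *Cldn5* at 686, 471, and 718 TPM at Year 0.5, at 541, 461, and 649.9 TPM at Year 1, and at 313, 378, and 461 TPM at Year 2. After *Plvap*, *Cldn5* had the highest control levels of the set, and at Year 2 it stood at 37.5% of control, a log2 fold change of -1.41 ± 0.14 (FDR 5.36e-05). *Icam2* was at 203, 215, and 172 TPM in the control rats at Year 0.5, at 184, 177, and 173 TPM at Year 1, and at 171, 173, and 138 TPM at Year 2. MWCNT-treated rats had *Icam2* at 107, 84.3, and 103 TPM at Year 0.5, at 102, 86.4, and 95.2 TPM at Year 1, and at 53.9, 60.4, and 73.2 TPM at Year 2. Every treated rat was below every control rat, and *Icam2* fell by 0.86 ± 0.11, 0.68 ± 0.07, and 1.15 ± 0.13. *Ptprb* was at 186, 179, and 159.7 TPM in the control rats at Year 0.5, at 150.0, 203, and 180.2 TPM at Year 1, and at 113, 154, and 143 TPM at Year 2. MWCNT-treated rats had *Ptprb* at 99.97, 69.6, and 97.5 TPM at Year 0.5, at 82.2, 48.2, and 84.9 TPM at Year 1, and at 36.7, 40.4, and 44.9 TPM at Year 2. The deepest fall of the class at Year 2 was that of *Ptprb*, at -1.53 ± 0.11 (FDR 6.23e-06), after -0.83 ± 0.13 at Year 0.5 and -1.08 ± 0.18 at Year 1, where rat 2 of the treated group was well below the other two. The shallowest was that of *Esam*, at -0.44 ± 0.08, -0.42 ± 0.07, and -0.73 ± 0.09, with 258, 282, and 236 TPM in the control rats and 129, 125, and 148 TPM in the treated rats of Year 2. On the log2(TPM + 1) scale *Esam* read -0.66 at Year 1.

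The angiopoietin receptors *Tek* and *Tie1*, which keep vessels quiescent and work as a pair on the endothelial surface, both fell at every year, but by very different amounts. *Tek* was at 319.9, 303, and 249 TPM in the control rats at Year 0.5, at 281, 298, and 288 TPM at Year 1, and at 246, 281, and 275 TPM at Year 2. MWCNT-treated rats had *Tek* at 135, 95.8, and 139 TPM at Year 0.5, at 139, 97.2, and 123 TPM at Year 1, and at 53.9, 65.3, and 78.3 TPM at Year 2. At Year 2 the treated rats had 28.6% of the control level, and the log2 fold changes of *Tek* were -1.10 ± 0.14, -1.04 ± 0.10, and -1.81 ± 0.12 (FDR 0.000453, 0.000103, and 4.17e-06). *Tie1* was at 198, 205, and 182 TPM in the control rats at Year 0.5, at 168, 183, and 185 TPM at Year 1, and at 174, 197, and 179.8 TPM at Year 2. MWCNT-treated rats had *Tie1* at 136, 121, and 141 TPM at Year 0.5, at 137, 109, and 138 TPM at Year 1, and at 121, 139, and 126 TPM at Year 2. The groups of *Tie1* were separate at each year but close, and its log2 fold changes were -0.41 ± 0.07, -0.25 ± 0.08, and -0.30 ± 0.07 (FDR 0.00251, 0.0386, and 0.00943). The Year 1 call of *Tie1* was lost without control rat 1, 2, or 3 or MWCNT rat 1, with log2 fold changes of -0.27, -0.24, -0.23, and -0.28. Under scaling by library size *Tie1* read -0.38 at Year 1 and -0.47 at Year 2, and on the log2(TPM + 1) scale -0.48 and -0.51. The ratio of *Tek* to *Tie1* in TPM, a pair chosen after the values were seen and given with no test, was 1.49 ± 0.122, 1.62 ± 0.0575, and 1.46 ± 0.0626 (SD, n = 3) in the control rats of Years 0.5, 1, and 2 and 0.923 ± 0.116, 0.932 ± 0.0742, and 0.512 ± 0.0937 in the MWCNT-treated rats. Control rats thus had more *Tek* than *Tie1* transcript per length at every year, and all 3 treated rats of Years 0.5 and 2 had less.

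Among the transcription factors, *Erg*, *Sox7*, and *Sox18* fell at every year and *Fli1* did not. *Erg* is an ETS factor that maintains junctions and endothelial identity, and *Sox7* and *Sox18* are SOX factors of vessel development. *Erg* was at 91.0, 90.5, and 83.0 TPM in the control rats at Year 0.5, at 80.1, 80.5, and 82.3 TPM at Year 1, and at 61.7, 78.9, and 69.4 TPM at Year 2. MWCNT-treated rats had *Erg* at 45.3, 36.1, and 47.4 TPM at Year 0.5, at 46.4, 36.8, and 44.9 TPM at Year 1, and at 23.0, 25.9, and 32.4 TPM at Year 2. No treated rat reached the lowest control rat, and *Erg* fell by 0.90 ± 0.10, 0.69 ± 0.08, and 1.15 ± 0.12 on the log2 scale (FDR 0.000180, 0.000210, and 6.07e-05). *Sox18* was at 235, 245, and 180.5 TPM in the control rats at Year 0.5, at 186, 168, and 175 TPM at Year 1, and at 204, 251, and 156 TPM at Year 2. MWCNT-treated rats had *Sox18* at 96.7, 86.4, and 106 TPM at Year 0.5, at 102, 77.6, and 94.6 TPM at Year 1, and at 50.9, 59.1, and 71.9 TPM at Year 2. The largest change of the class at Year 2 was that of *Sox18*, -1.53 ± 0.17 (FDR 9.31e-05), after -1.05 ± 0.12 and -0.72 ± 0.09. *Sox7* was at 44.2, 39.2, and 57.2 TPM in the control rats at Year 0.5, at 41.0, 56.2, and 59.3 TPM at Year 1, and at 34.3, 46.6, and 40.1 TPM at Year 2. MWCNT-treated rats had *Sox7* at 32.2, 24.1, and 35.9 TPM at Year 0.5, at 26.9, 20.7, and 30.8 TPM at Year 1, and at 14.9, 15.5, and 21.1 TPM at Year 2. Its groups were separate within each year, and the log2 fold changes of *Sox7* were -0.47 ± 0.16, -0.77 ± 0.15, and -1.02 ± 0.14 (FDR 0.0439, 0.00354, and 0.000301). The Year 0.5 call of *Sox7* was lost without control rat 1 or 3 or MWCNT rat 1 or 2, with log2 fold changes of -0.51, -0.31, -0.51, and -0.32.

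*Fli1*, an ETS factor expressed in endothelium and also in blood cells, was the exception. *Fli1* was at 42.9, 57.4, and 105 TPM in the control rats at Year 0.5, at 58.1, 73.6, and 78.5 TPM at Year 1, and at 46.3, 51.9, and 59.9 TPM at Year 2. MWCNT-treated rats had *Fli1* at 57.9, 52.4, and 49.9 TPM at Year 0.5, at 43.4, 51.6, and 56.4 TPM at Year 1, and at 50.1, 54.3, and 58.4 TPM at Year 2. The groups overlapped at Years 0.5 and 2, and the control rat with 105 TPM at Year 0.5 stood far above the other two. The log2 fold changes of *Fli1* were -0.21 ± 0.27, -0.23 ± 0.13, and 0.26 ± 0.09 (FDR 0.567, 0.180, and 0.0404), and the Year 2 call was lost in 11 alternatives, among them scaling by library size (0.089), log2(TPM + 1) (0.046), DESeq2 (0.26), and leaving out control rat 1 or 2 or MWCNT rat 1, 2, or 3 (0.20 to 0.30). At Year 1 *Fli1* was called lower under scaling by library size (-0.37) and log2(TPM + 1) (-0.46). The 5 leukocyte markers used were *Ptprc*, *Cd3e*, *Cd79a*, *Csf3r*, and *Lcp1*, which are not all general to leukocytes. Of these, *Ptprc* and *Lcp1* were higher at Year 2, with log2 fold changes of 0.28 ± 0.08 and 1.17 ± 0.09. The T cell gene *Cd3e* was lower, at -1.39 ± 0.30. Beside them, 25.2% of all genes rose and 24.0% fell. The summed TPM of the 5 markers was 420.7 to 474 in the control rats and 594 to 697 in the treated rats of Year 2. That difference came mainly from *Lcp1*, at 247 to 274 TPM in control and 456 to 527 TPM in treated rats. *Ptprc* overlapped in TPM, and the median log2 fold change of the 5 markers was -0.17. The part of these markers in the *Fli1* values was not tested.

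The 10 matrix, surface, and signalling genes fell in 9 of 10 cases at Year 0.5, in all 10 at Year 1, and in 9 of 10 at Year 2, and *Nos3* was the one not called. The median log2 fold change of the 10 was -0.79, -0.76, and -1.31. They include *Clec14a* and its ligand *Mmrn2*, an extracellular matrix glycoprotein of endothelium, the secreted factor *Egfl7*, the adhesion receptor *Adgrl4*, and *Rasip1*, which is needed for vessel lumens.

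*Clec14a* was at 495, 502, and 394 TPM in the control rats at Year 0.5, at 417, 347, and 367 TPM at Year 1, and at 369.9, 436, and 385 TPM at Year 2. MWCNT-treated rats had *Clec14a* at 214, 127, and 199.6 TPM at Year 0.5, at 204, 145, and 168 TPM at Year 1, and at 67.2, 90.7, and 113 TPM at Year 2. No overlap was seen at any year, and at Year 2 *Clec14a* was 3.79-fold lower, the largest change of the class, with log2 fold changes of -1.22 ± 0.18, -0.90 ± 0.12, and -1.92 ± 0.16 (FDR 0.000821, 0.000512, and 1.44e-05). *Mmrn2* was at 51.2, 51.1, and 44.9 TPM in the control rats at Year 0.5, at 47.8, 52.6, and 48.7 TPM at Year 1, and at 42.6, 50.2, and 46.4 TPM at Year 2. MWCNT-treated rats had *Mmrn2* at 27.4, 24.1, and 29.9 TPM at Year 0.5, at 27.8, 21.1, and 30.0 TPM at Year 1, and at 20.8, 18.3, and 19.8 TPM at Year 2. Its ligand gene thus fell too, by 0.71 ± 0.09, 0.69 ± 0.10, and 1.02 ± 0.08 on the log2 scale. *Egfl7* was at 403, 474, and 288 TPM in the control rats at Year 0.5, at 382, 221, and 258 TPM at Year 1, and at 487, 562, and 375 TPM at Year 2. MWCNT-treated rats had *Egfl7* at 199.7, 106, and 158 TPM at Year 0.5, at 172, 112, and 142 TPM at Year 1, and at 88.9, 141, and 182 TPM at Year 2. The control levels of *Egfl7* spread widely at each year, above those of the treated rats, and the log2 fold changes were -1.20 ± 0.23, -0.79 ± 0.21, and -1.58 ± 0.23 (FDR 0.00368, 0.0150, and 0.000463). Without control rat 1, the Year 1 value of *Egfl7* was -0.51. *Adgrl4* was at 53.0, 49.0, and 44.5 TPM in the control rats at Year 0.5, at 45.2, 55.5, and 49.0 TPM at Year 1, and at 37.2, 46.5, and 52.3 TPM at Year 2. MWCNT-treated rats had *Adgrl4* at 27.5, 21.8, and 28.0 TPM at Year 0.5, at 24.7, 23.9, and 25.8 TPM at Year 1, and at 14.9, 17.2, and 21.4 TPM at Year 2. Treated rats lay below control rats throughout, and *Adgrl4* fell by 0.78 ± 0.10, 0.77 ± 0.08, and 1.13 ± 0.13. *Rasip1* was at 206, 222, and 187 TPM in the control rats at Year 0.5, at 189, 186, and 200.04 TPM at Year 1, and at 208, 239.8, and 196 TPM at Year 2. MWCNT-treated rats had *Rasip1* at 104, 82.2, and 121 TPM at Year 0.5, at 109.7, 69.0, and 112 TPM at Year 1, and at 58.8, 70.8, and 79.0 TPM at Year 2. At Year 2 *Rasip1* stood at 37.6% of control, with log2 fold changes of -0.87 ± 0.12, -0.76 ± 0.14, and -1.41 ± 0.11.

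The signalling genes of the class cover lipid, peptide, and nitric oxide signals. *S1pr1* is the receptor for sphingosine 1-phosphate that tightens the barrier, and *Calcrl* and *Ramp2* together form the receptor for adrenomedullin. *Nos3* makes nitric oxide, and *Nostrin* encodes a protein that binds it and governs its place in the cell. *S1pr1* was at 349, 322, and 312 TPM in the control rats at Year 0.5, at 305, 327, and 303 TPM at Year 1, and at 242, 278, and 303 TPM at Year 2. MWCNT-treated rats had *S1pr1* at 188, 139.9, and 187 TPM at Year 0.5, at 157, 112, and 150.4 TPM at Year 1, and at 88.1, 96.1, and 111 TPM at Year 2. Separate groups at each year went with a fall of *S1pr1* by 0.79 ± 0.11, 0.93 ± 0.10, and 1.26 ± 0.09 (FDR 0.000563, 0.000177, and 8.70e-06). *Calcrl* was at 292, 274, and 241 TPM in the control rats at Year 0.5, at 235, 254, and 249 TPM at Year 1, and at 190.3, 269, and 253 TPM at Year 2. MWCNT-treated rats had *Calcrl* at 167, 132, and 147 TPM at Year 0.5, at 155, 121, and 133 TPM at Year 1, and at 86.1, 98.3, and 104 TPM at Year 2. *Calcrl* fell by 0.71 ± 0.10, 0.62 ± 0.09, and 1.08 ± 0.11 on the log2 scale. *Ramp2* was at 941, 947, and 769 TPM in the control rats at Year 0.5, at 798, 797, and 854 TPM at Year 1, and at 805, 892, and 655 TPM at Year 2. MWCNT-treated rats had *Ramp2* at 401, 326, and 449 TPM at Year 0.5, at 407, 343, and 406 TPM at Year 1, and at 192, 218, and 271 TPM at Year 2. The fall of *Ramp2* was deeper than that of its partner at each year, at -1.04 ± 0.12, -0.85 ± 0.07, and -1.58 ± 0.14 (FDR 0.000270, 4.76e-05, and 2.73e-05), but the difference between both genes was not tested. *Nostrin* was at 148, 153, and 128 TPM in the control rats at Year 0.5, at 128, 119, and 114 TPM at Year 1, and at 121, 159, and 116 TPM at Year 2. MWCNT-treated rats had *Nostrin* at 86.8, 69.7, and 85.8 TPM at Year 0.5, at 74.8, 70.8, and 76.9 TPM at Year 1, and at 41.0, 40.2, and 51.8 TPM at Year 2. The treated levels of *Nostrin* were similar at Years 0.5 and 1 and lower at Year 2, with log2 fold changes of -0.68 ± 0.10, -0.46 ± 0.08, and -1.36 ± 0.13 (FDR 0.000821, 0.00178, and 4.15e-05). On the log2(TPM + 0.1) scale the Year 1 value of *Nostrin* was -0.69.

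*Nos3* was at 9.45, 9.61, and 13.4 TPM in the control rats at Year 0.5, at 10.7, 14.9, and 13.6 TPM at Year 1, and at 10.5, 12.8, and 14.0 TPM at Year 2. MWCNT-treated rats had *Nos3* at 7.82, 8.20, and 11.2 TPM at Year 0.5, at 8.06, 6.49, and 9.85 TPM at Year 1, and at 8.88, 9.32, and 8.80 TPM at Year 2. These are low levels, from 334 to 649 counts in a rat, and the groups overlapped at Year 0.5. *Nos3* had log2 fold changes of -0.11 ± 0.17, -0.45 ± 0.15, and -0.25 ± 0.10 (FDR 0.6203, 0.0342, and 0.0643), the smallest of the class at Year 2. The Year 1 call was lost without control rat 2 or 3 or MWCNT rat 1 or 2, with values of -0.37, -0.43, -0.44, and -0.35. At Year 2 it was called lower under scaling by library size (-0.42), upper quartile scaling (-0.30), log2(TPM + 1) (-0.42), and without control rat 1 (-0.33). On the log2(TPM + 0.1) scale it read -0.68 at Year 1.

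All 5 capillary genes counted fell at every year, and so did *Ca4*. Their median log2 fold change was -1.20, -0.94, and -1.66 at Years 0.5, 1, and 2, and 4 of 5, none, and 4 of 5 fell by more than 2-fold. The plot of the vessel subtype markers by rat shows these genes first.

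*Plvap* (ENSRNOG00000017676, chr16:19906318-19918689, minus strand; build Rnor_6.0 per the labels) encodes the protein of the diaphragms that close endothelial pores and vesicles. *Plvap* was at 2463, 2459, and 1925 TPM in the control rats at Year 0.5, at 2115, 1984, and 2077 TPM at Year 1, and at 2332, 2762, and 1745 TPM at Year 2. MWCNT-treated rats had *Plvap* at 950.0, 665, and 1098 TPM at Year 0.5, at 1051, 696, and 1013 TPM at Year 1, and at 313, 408, and 541 TPM at Year 2. It was the most abundant gene of the set in control lung and the gene with the deepest fall at Year 2. Its log2 fold changes were -1.20 ± 0.17, -0.94 ± 0.13, and -2.23 ± 0.21 (FDR 0.000723, 0.000575, and 3.67e-05), which at Year 2 is 4.68-fold lower or 21.3% of control.

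*Tmem100* (ENSRNOG00000002434, chr10:77537340-77543192, plus strand) encodes a membrane protein that endothelium makes in response to BMP signals. *Tmem100* was at 685, 616, and 525 TPM in the control rats at Year 0.5, at 576, 466, and 519.6 TPM at Year 1, and at 569, 717, and 517 TPM at Year 2. MWCNT-treated rats had *Tmem100* at 289.8, 193, and 275 TPM at Year 0.5, at 287, 181, and 230.0 TPM at Year 1, and at 102, 136, and 171 TPM at Year 2. No treated rat came near the control range, and *Tmem100* fell by 1.13 ± 0.15, 0.94 ± 0.14, and 1.93 ± 0.17 on the log2 scale (FDR 0.000508, 0.00108, and 2.70e-05). It was 3.81-fold lower at Year 2.

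The apelin peptide gene *Apln* (ENSRNOG00000003984, chrX:134856726-134866210, minus strand) and the apelin receptor gene *Aplnr* (ENSRNOG00000009227, chr3:72540538-72544182, plus strand) are a ligand and receptor pair that marks different capillary cells, aerocytes and general capillary cells. *Apln* was at 157, 155, and 115 TPM in the control rats at Year 0.5, at 133, 97.4, and 99.96 TPM at Year 1, and at 106, 118, and 79.4 TPM at Year 2. MWCNT-treated rats had *Apln* at 65.2, 39.3, and 63.2 TPM at Year 0.5, at 55.8, 38.2, and 50.7 TPM at Year 1, and at 24.1, 31.9, and 28.1 TPM at Year 2. The treated rats were below all control rats of their year. *Aplnr* was at 201, 220.3, and 139 TPM in the control rats at Year 0.5, at 136, 96.4, and 109 TPM at Year 1, and at 129, 174, and 144 TPM at Year 2. MWCNT-treated rats had *Aplnr* at 71.2, 54.2, and 81.5 TPM at Year 0.5, at 76.2, 47.4, and 61.3 TPM at Year 1, and at 35.9, 41.7, and 43.6 TPM at Year 2. The control rats of Year 1 reached down to the lowest control level of *Aplnr*, and every treated rat was below every control rat. The log2 fold changes were -1.21 ± 0.19, -0.97 ± 0.15, and -1.64 ± 0.15 for *Apln* (FDR 0.00111, 0.00128, and 3.05e-05). Those of *Aplnr* were -1.30 ± 0.18, -0.66 ± 0.17, and -1.66 ± 0.11 (FDR 0.000743, 0.0128, and 3.76e-06). Ligand and receptor thus stood at 32.1% and 31.6% of control at Year 2.

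*Ednrb* (ENSRNOG00000010997, chr15:88006977-88036354, minus strand), the type B endothelin receptor of aerocytes, differed from the others in its course. *Ednrb* was at 185, 159, and 159 TPM in the control rats at Year 0.5, at 147, 159, and 149 TPM at Year 1, and at 78.8, 92.5, and 94.9 TPM at Year 2. MWCNT-treated rats had *Ednrb* at 90.4, 72.2, and 92.3 TPM at Year 0.5, at 77.8, 60.7, and 79.4 TPM at Year 1, and at 31.4, 45.7, and 59.8 TPM at Year 2. The control level at Year 2 was about as low as the treated level at Year 0.5, so the ranges of the 9 control and 9 treated rats overlapped although those of each year did not. Its log2 fold changes were -0.84 ± 0.10, -0.83 ± 0.09, and -0.74 ± 0.18 (FDR 0.000285, 0.000133, and 0.00726), the smallest of the capillary class at Year 2. *Ca4* (ENSRNOG00000002916, chr10:72272248-72281067, plus strand) encodes the carbonic anhydrase of the capillary surface. *Ca4* was at 220.0, 206, and 153 TPM in the control rats at Year 0.5, at 170.0, 127, and 137 TPM at Year 1, and at 152, 150.5, and 103 TPM at Year 2. MWCNT-treated rats had *Ca4* at 92.7, 66.9, and 87.9 TPM at Year 0.5, at 88.1, 66.7, and 79.6 TPM at Year 1, and at 29.1, 35.3, and 48.4 TPM at Year 2. *Ca4* fell by 1.09 ± 0.15, 0.66 ± 0.13, and 1.64 ± 0.20 on the log2 scale (FDR 0.000690, 0.00375, and 0.000159).

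**Figure D3:**
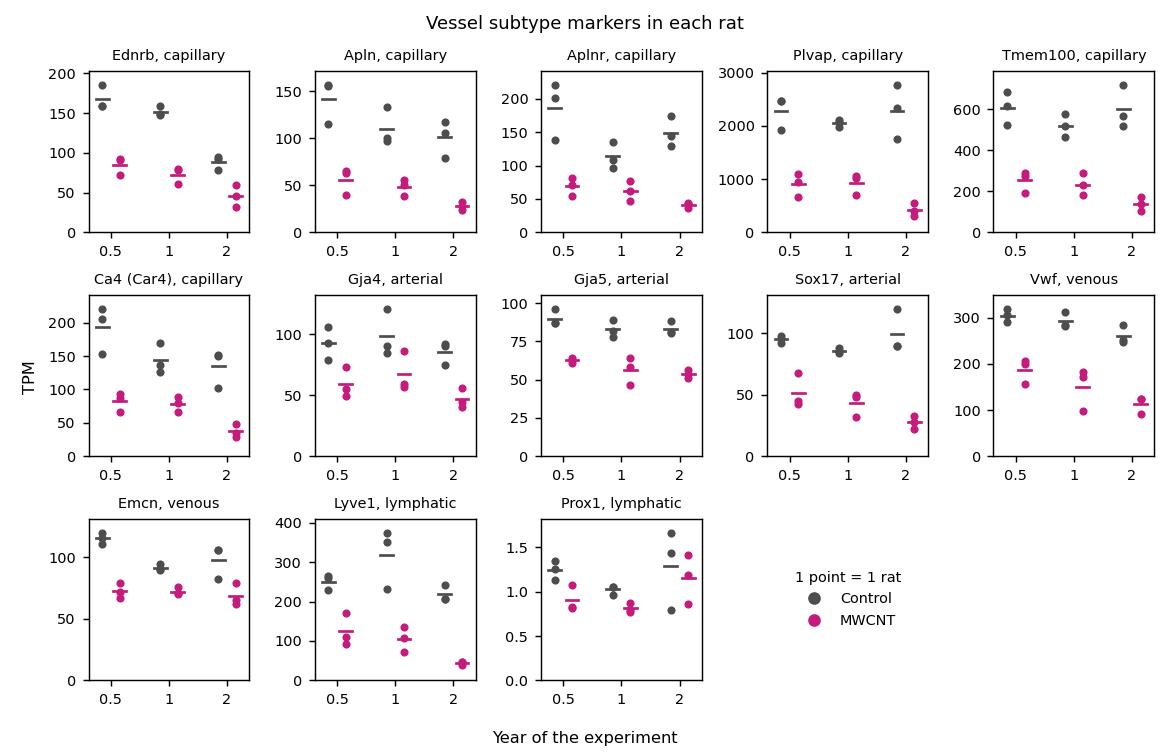
TPM (y axis, from 0, scaled for each gene) of the capillary, arterial, venous, and lymphatic markers at each year (x axis), with 1 point per rat and a bar for the mean of 3 rats. Control and MWCNT points are separate for most genes and years; the groups of *Prox1*, near 1 TPM, overlap at Year 2 and those of *Gja4* at Year 1.

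The 3 arterial genes split. *Sox17*, a SOX factor of arterial identity, fell as deeply as the capillary genes at Year 2, while the connexins *Gja4* and *Gja5*, which join endothelial cells electrically, fell less. *Sox17* was at 95.3, 98.1, and 92.4 TPM in the control rats at Year 0.5, at 85.7, 84.3, and 87.8 TPM at Year 1, and at 89.8, 119.5, and 89.9 TPM at Year 2. MWCNT-treated rats had *Sox17* at 45.1, 42.2, and 67.5 TPM at Year 0.5, at 49.7, 32.2, and 48.1 TPM at Year 1, and at 22.1, 27.6, and 32.7 TPM at Year 2. *Sox17* (ENSRNOG00000027357, chr5:14890408-14895907, plus strand) fell by 0.75 ± 0.15, 0.76 ± 0.12, and 1.65 ± 0.14 on the log2 scale (FDR 0.00432, 0.00152, and 2.18e-05), with no overlap at any year.

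*Gja4* was at 78.9, 92.9, and 106 TPM in the control rats at Year 0.5, at 84.5, 90.3, and 120.4 TPM at Year 1, and at 92.3, 90.4, and 74.7 TPM at Year 2. MWCNT-treated rats had *Gja4* at 49.0, 55.2, and 73.5 TPM at Year 0.5, at 57.1, 59.5, and 86.0 TPM at Year 1, and at 40.5, 44.4, and 56.1 TPM at Year 2. At Year 1 the highest treated rat of *Gja4* (ENSRNOG00000014357, chr5:145374690-145377221, minus strand) was above the lowest control rat, and the log2 fold changes were -0.50 ± 0.15, -0.31 ± 0.17, and -0.66 ± 0.13 (FDR 0.0271, 0.170, and 0.00281). The Year 0.5 call was lost without control rat 2 or 3 or MWCNT rat 1 or 2, with values of -0.49, -0.40, -0.38, and -0.45. At Year 1 *Gja4* was called lower on the log2(TPM + 1) scale (-0.54) and without MWCNT rat 3 (-0.50). *Gja5* was at 86.8, 87.0, and 95.9 TPM in the control rats at Year 0.5, at 88.9, 77.9, and 82.1 TPM at Year 1, and at 81.4, 88.2, and 80.3 TPM at Year 2. MWCNT-treated rats had *Gja5* at 60.9, 62.9, and 64.0 TPM at Year 0.5, at 64.2, 46.6, and 58.2 TPM at Year 1, and at 53.6, 56.4, and 51.4 TPM at Year 2. *Gja5* (ENSRNOG00000017484, chr2:199162745-199184939, plus strand) was separate at every year with little spread, and fell by 0.38 ± 0.06, 0.33 ± 0.10, and 0.42 ± 0.07 (FDR 0.00154, 0.0308, and 0.00107). Its Year 1 call was lost without control rat 1 or 3 or MWCNT rat 2 or 3, with values of -0.26, -0.34, -0.25, and -0.34, and on the log2(TPM + 1) scale it read -0.56 at Year 1. With a pseudocount of 0.1 it read -0.63 at Year 2.

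*Gja5* is also a connexin of atrial muscle, which lies in the pulmonary vein wall of rodents. For 6 heart muscle markers the summed TPM was 155 to 538, 163 to 416, and 67.8 to 557 among control rats of Years 0.5, 1, and 2 and 78.0 to 101, 14.1 to 168, and 46.7 to 91.3 among MWCNT-treated rats. Of these markers, 5 of 5 tested were lower at Year 0.5, 1 of 5 at Year 1, and 1 of 4 at Year 2. Beside them, 18.6%, 19.6%, and 24.0% of all genes tested were lower, so the counts of Years 1 and 2 were near that share. The atrial hormone gene *Nppa* reached at most 0.610 TPM in the control rats of Year 0.5 and was at 0 in every control rat of Years 1 and 2. The part of muscle in the *Gja5* values was not tested.

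Of the venous genes, *Vwf* fell at every year and *Emcn* at Year 0.5. *Vwf* (ENSRNOG00000019689, chr4:158088505-158219523, plus strand) encodes von Willebrand factor, which is stored in endothelium of larger vessels and also in platelets and megakaryocytes. *Vwf* was at 291, 318, and 305 TPM in the control rats at Year 0.5, at 285, 313, and 282 TPM at Year 1, and at 248, 284, and 251 TPM at Year 2. MWCNT-treated rats had *Vwf* at 201, 156, and 207 TPM at Year 0.5, at 183, 98.2, and 171 TPM at Year 1, and at 90.6, 124, and 125 TPM at Year 2. The groups were separate, and *Vwf* fell by 0.56 ± 0.10, 0.74 ± 0.18, and 0.99 ± 0.12 on the log2 scale (FDR 0.00247, 0.00966, and 0.000131). Among 5 platelet and megakaryocyte markers, the summed TPM was 54.0 to 60.7, 49.8 to 63.7, and 53.6 to 66.4 in the control rats and 105 to 109, 121 to 144, and 128 to 137 in the MWCNT-treated rats. *Pf4*, a chemokine gene that macrophages can also express, rose (1.92 ± 0.15 at Year 2), while *Itga2b* and *Gp1bb* fell (-0.65 and -2.38 at Year 2) and *Ppbp* was too low to be tested. Their part in the *Vwf* values was not tested.

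*Emcn* (ENSRNOG00000022910, chr2:242634399-242714182, plus strand) is the endomucin gene of venous and capillary endothelium. *Emcn* was at 119, 116, and 111 TPM in the control rats at Year 0.5, at 94.1, 90.1, and 89.2 TPM at Year 1, and at 82.0, 106, and 106 TPM at Year 2. MWCNT-treated rats had *Emcn* at 78.7, 67.0, and 71.5 TPM at Year 0.5, at 75.6, 69.8, and 70.7 TPM at Year 1, and at 65.3, 62.3, and 78.9 TPM at Year 2. In TPM, all treated rats were below the control rats of their year. That also held for 40.7%, 46.8%, and 45.7% of all genes tested at Years 0.5, 1, and 2. On the count scale *Emcn* had log2 fold changes of -0.53 ± 0.07, -0.10 ± 0.07, and -0.29 ± 0.11 (FDR 0.000700, 0.289, and 0.0523). At Years 1 and 2 it was called lower under scaling by library size (-0.24 and -0.46) and on the log2(TPM + 1) scale (-0.34 and -0.50). At Year 2 the other settings that called it lower included DESeq2 (-0.29), no filter on low counts (-0.29), and leaving out control rat 1 (-0.38) or MWCNT rat 3 (-0.38).

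The lymphatic markers *Lyve1* and *Prox1* differed widely. *Lyve1* (ENSRNOG00000026902, chr1:175663266-175676699, minus strand) encodes a hyaluronan receptor of lymphatic endothelium that some tissue macrophages also carry, and *Prox1* (ENSRNOG00000003694, chr13:108382399-108443294, plus strand) is the transcription factor that sets lymphatic identity. *Lyve1* was at 264, 228, and 259 TPM in the control rats at Year 0.5, at 231, 373, and 351 TPM at Year 1, and at 206, 242, and 207 TPM at Year 2. MWCNT-treated rats had *Lyve1* at 109.9, 91.9, and 172 TPM at Year 0.5, at 107, 71.5, and 135 TPM at Year 1, and at 39.7, 46.9, and 46.7 TPM at Year 2. Treated rats were lower at each year, and by Year 2 the 3 treated rats lay within a narrow range at 23.6% of control. *Lyve1* fell by 0.87 ± 0.19, 1.38 ± 0.21, and 2.08 ± 0.09 on the log2 scale (FDR 0.00632, 0.00119, and 4.63e-07), which is 4.23-fold lower at Year 2.

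*Prox1* was at 1.13, 1.25, and 1.35 TPM in the control rats at Year 0.5, at 1.06, 1.06, and 0.968 TPM at Year 1, and at 0.788, 1.43, and 1.66 TPM at Year 2. MWCNT-treated rats had *Prox1* at 1.07, 0.830, and 0.817 TPM at Year 0.5, at 0.871, 0.795, and 0.768 TPM at Year 1, and at 0.857, 1.41, and 1.19 TPM at Year 2. With 42 to 92 counts in a rat, *Prox1* was the least abundant gene of the set, and its log2 fold changes were -0.31 ± 0.21, -0.10 ± 0.19, and 0.06 ± 0.29 (FDR 0.262, 0.694, and 0.878). The groups overlapped at Year 2, and no difference was detectable at this depth. Of 6 other lymphatic genes, 5, 4, and 4 fell at Years 0.5, 1, and 2 and none rose, beside 18.6%, 19.6%, and 24.0% of all genes that fell. The lymphatic chemokine gene *Ccl21* was at 354 to 404 TPM in the control rats and 140.2 to 176 TPM in the treated rats of Year 2, with a log2 fold change of -1.08 ± 0.10 (FDR 2.61e-05). *Foxc2*, a factor of lymphatic valves, fell by more than 2-fold at Year 0.5 (-1.09 ± 0.32) from 1.70 to 2.19 TPM in the control rats to 0.673 to 1.25 TPM in the treated rats. *Reln* was not called at any year.

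Lung macrophage markers moved the other way from *Lyve1*. All 6 rose at each year, beside 20.2%, 21.6%, and 25.2% of all genes at Years 0.5, 1, and 2. Their summed TPM went from 296 to 328 in control and 727 to 832 in treated rats at Year 0.5 to 293 to 343 and 972 to 1039.7 at Year 2. Their part in the *Lyve1* values was not tested.

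To compare the subtype markers with broadly expressed endothelial genes, the libraries were scaled to 9 core genes, *Cdh5*, *Esam*, *Tek*, *Tie1*, *Erg*, *Clec14a*, *Egfl7*, *Mmrn2*, and *Rasip1*, in place of all genes. The geometric mean of these 9 was 195.5 to 235 TPM in the control rats and 89.7 to 122 TPM in the treated rats of Year 0.5, 191.8 to 204 and 85.5 to 117 TPM at Year 1, and 193 to 225 and 64.2 to 86.7 TPM at Year 2. Of the 24 other endothelial genes, 1, 2, and 7 were lower than the core at Years 0.5, 1, and 2 and 3, 3, and 7 were higher. Of all genes tested, 0.72%, 1.67%, and 1.29% were lower and 77.6%, 72.0%, and 85.0% were higher on this scale. With so many genes called, an FDR over all genes lay close to the unadjusted p of edgeR. For *Ramp2* at Year 2 the p was 0.0312 and the FDR 0.0367. The calls relative to the core were thus little adjusted for the number of endothelial genes compared. The median of the 24 genes was 0.065, -0.073, and 0.017, and 20, 19, and 10 of them were not called. The median of all genes tested was 0.85, 0.70, and 1.22 on this scale. The 9 core genes did not move as one. At Year 2, *Clec14a* (-0.71 ± 0.16), *Tek* (-0.59 ± 0.16), and *Egfl7* (-0.37 ± 0.17) were called below the scale they helped to set, and *Tie1* (0.94 ± 0.16) and *Esam* (0.51 ± 0.15) above it. The core genes spanned -0.38 to 0.45 at Year 0.5, -0.36 to 0.44 at Year 1, and -0.71 to 0.94 at Year 2. Of the other endothelial genes called lower or higher, all 4 at Year 0.5, 4 of 5 at Year 1, and 5 of 14 at Year 2 lay beyond that span.

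At Year 2 the 7 genes called lower relative to the core mean were *Plvap*, *Lyve1*, *Tmem100*, *Aplnr*, *Sox17*, *Apln*, and *Ramp2*. The log2 change relative to the core was -1.01 ± 0.18 for *Plvap* (FDR 1.53e-05). *Lyve1* followed with -0.84 ± 0.15 and *Tmem100* with -0.71 ± 0.16. The other 4 lay between -0.43 and -0.35, and *Ca4* was at -0.42 ± 0.17 (FDR 0.0235). Of these, *Plvap* and *Lyve1* lay below every core gene, while *Tmem100* and the others lay within the span of the core genes.

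The 7 genes called higher relative to the core at Year 2 were *Fli1*, *Prox1*, *Nos3*, *Emcn*, *Gja5*, *Gja4*, and *Ednrb*. *Fli1* stood at 1.49 ± 0.16 above the core (FDR 9.14e-09). *Prox1* was at 1.28 ± 0.31, *Nos3* at 0.99 ± 0.17, and *Emcn* at 0.94 ± 0.16. The connexins were at 0.83 ± 0.16 for *Gja5* and 0.57 ± 0.15 for *Gja4*. *Ednrb* was at 0.46 ± 0.16 (FDR 0.0114). The venous *Vwf* was at 0.23 ± 0.17 (FDR 0.194), and no departure from the core was called for it. Of the 7 genes, *Fli1*, *Prox1*, and *Nos3* lay above every core gene, and *Emcn*, both connexins, and *Ednrb* lay within the span that ends with *Tie1*. The median of all genes tested was 1.22 on this scale at Year 2, near the value of *Prox1* and above that of *Nos3*.

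Earlier years showed fewer departures. At Year 0.5, *Fli1* (0.61), *Nos3* (0.72), and *Gja5* (0.48) were above the core and *Aplnr* (-0.43) below it. At Year 1, *Fli1* (0.47), *Gja5* (0.36), and *Emcn* (0.60) were above and *Ptprb* (-0.42) and *Lyve1* (-0.71) below. *Gja5* and *Fli1* were called above the core at all 3 years. The Year 0.5 count dropped from 4 to 1 without control rat 1 or 2 and to 2 without MWCNT rat 2, and the Year 1 count from 5 to 3 without control rat 2. Leaving out 1 rat at Year 2 gave 10 to 15 genes.

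**Figure D4:**
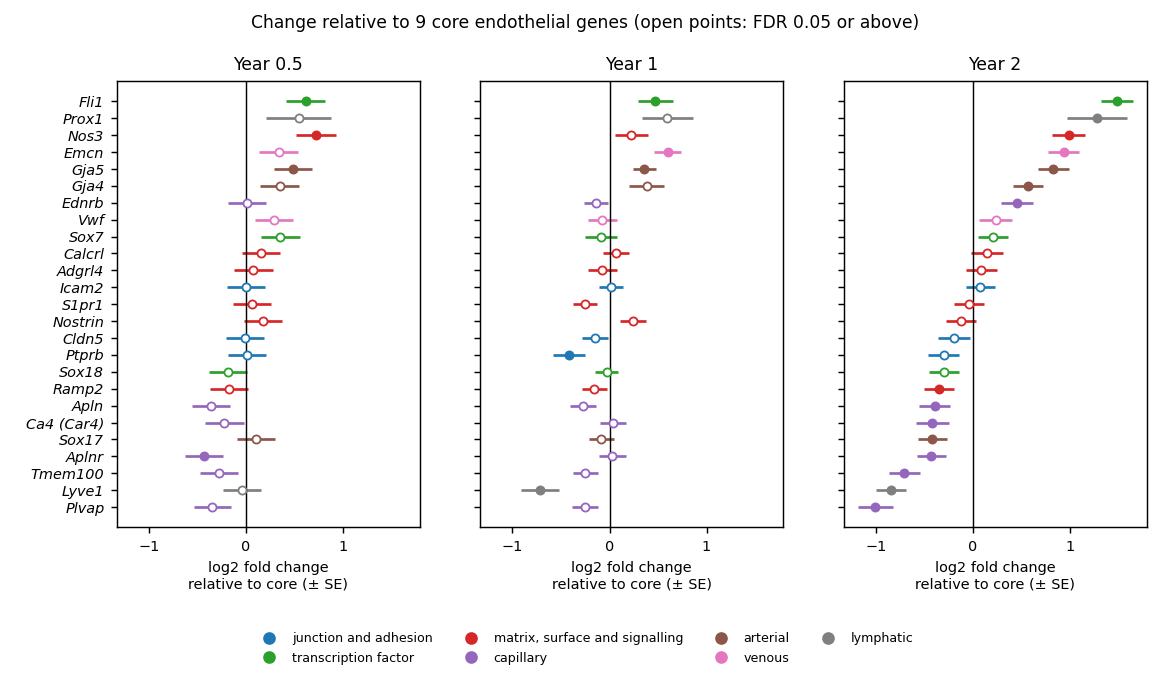
Log2 fold change of 24 endothelial genes and *Ca4* relative to 9 core endothelial genes (x axis, with standard error) at each year, ordered by the Year 2 value and coloured by role; open points have an FDR of 0.05 or above. The spread widens from Year 0.5 to Year 2, with *Plvap*, *Lyve1*, and *Tmem100* at the low end and *Fli1*, *Prox1*, and *Nos3* at the high end.

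The years were compared in one model of all 18 rats. In the control rats, 1 of the 33 genes differed between Year 2 and Year 0.5, beside 4.0% of all genes that fell and 2.65% that rose. It was *Ednrb*, with a log2 change of -0.91 ± 0.15 (FDR 0.00255), and 8 genes had an unadjusted p below 0.05. In the MWCNT-treated rats, 25 of 33 were lower at Year 2 than at Year 0.5 and none was higher, beside 6.87% and 6.65% of all genes. *Lyve1* changed by -1.40 ± 0.21 (FDR 0.000428), *Ptprb* by -1.04 ± 0.17, and *Plvap* by -1.02 ± 0.20. *Tie1*, *Fli1*, *Egfl7*, *Nos3*, *Gja4*, *Gja5*, *Emcn*, and *Prox1* were not called. Leaving out 1 rat gave 17 to 25 genes. From Year 0.5 to Year 1, none of the 33 genes was called in either group, beside 0.0% of all genes called in control and 0.101% in treated rats. At an unadjusted p below 0.05 there were 4 of the 33 genes in the control rats and 1 in the treated rats. The share of all genes at an unadjusted p below 0.05 was not counted.

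A larger effect at one year than at another is a separate test. The difference of the treatment effect between Years 2 and 0.5 was called for none of the 33 genes, beside 1.31% of all genes. An unadjusted p below 0.05 was seen for 17 of the 33 genes. The lowest FDRs were those of *Lyve1* (-1.20 ± 0.30, FDR 0.0543), *Nostrin* (-0.67 ± 0.17, FDR 0.0579), and *Sox17* (-0.89 ± 0.23, FDR 0.0690). DESeq2 called 6 genes. Without MWCNT rat 2 of Year 0.5 the edgeR count was 6, without MWCNT rat 3 of Year 2 it was 3, and without control rat 3 of Year 2 it was 2. Between Years 2 and 1 the difference was called for *Nostrin* alone (-0.89 ± 0.17, FDR 0.0316), beside 0.478% of all genes. *Plvap* was at -1.28 ± 0.29 (FDR 0.0534), 18 genes had an unadjusted p below 0.05, and DESeq2 called 10. The count became 7 without MWCNT rat 2 of Year 1, 6 without control rat 3 of Year 2, 4 without MWCNT rat 3 of Year 2, 2 without control rat 1 of Year 1, and 0 without any other single rat. Between Years 1 and 0.5 none was called by edgeR or DESeq2, with 2 at an unadjusted p below 0.05 and 0.0% of all genes called. These comparisons share rats, since each year enters 2 of them. For none of them was the share of all genes counted at an unadjusted p below 0.05, under DESeq2, or with 1 rat left out.

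Other endothelial genes, outside the 33, were taken from lists of vessel subtypes. For these lists, the share of all genes tested that fell was 18.6%, 19.6%, and 24.0% at Years 0.5, 1, and 2. Of 4 aerocyte genes, 2, 3, and 3 fell at Years 0.5, 1, and 2. *Kdr*, the main VEGF receptor, was at 154 to 204 TPM in the control rats and 41.4 to 64.5 TPM in the treated rats of Year 2, a log2 fold change of -1.58 ± 0.16 (FDR 4.63e-05). *Rprml* and the transcription factor gene *Tbx2* were at -1.51 ± 0.21 and -1.13 ± 0.12, while *Fibin* was higher at Year 0.5 (0.47 ± 0.11).

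Of 4 general capillary genes, 3, 2, and 2 fell and *Sema3c* rose at each year. *Gpihbp1*, which holds lipoprotein lipase on the capillary wall, changed by -1.20 ± 0.10 at Year 2 (FDR 1.31e-05), and *Kit* by -1.31 ± 0.08. *Sema3c* rose by 1.07 ± 0.13 at Year 2 (FDR 0.000125). Relative to the core, *Gpihbp1* (0.021 ± 0.15) and *Kit* (-0.062 ± 0.16) were not called at Year 2.

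Of 6 further arterial genes, 5, 3, and 4 fell. The Notch ligand gene *Dll4* went from 96.7 to 139 TPM in the control rats to 16.9 to 24.0 TPM in the treated rats of Year 2, a change of -2.26 ± 0.16 (FDR 6.40e-06) close to that of *Plvap*. The ephrin ligand gene *Efnb2* and *Sema3g* were at -1.91 ± 0.16 and -1.81 ± 0.21. Relative to the core mean they were called lower at Year 2, at -1.03, -0.69, and -0.59, and *Dll4* alone of the 3 lay below every core gene. *Dkk2* rose at Year 2, by 1.29 ± 0.27 (FDR 0.00375), at 2.22 to 8.06 TPM. Of 4 venous genes, 2 fell at each year, and *Ephb4*, the receptor for the ligand that *Efnb2* encodes, was at -1.05 ± 0.09 at Year 2 (FDR 2.28e-05).

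Markers of other lung cell types changed in the same lungs. Beside them, 18.6%, 19.6%, and 24.0% of all genes fell and 20.2%, 21.6%, and 25.2% rose at Years 0.5, 1, and 2. Of 5 alveolar type 1 markers, 5, 4, and 5 fell at Years 0.5, 1, and 2, with a median of -0.65, -0.56, and -0.97 log2 units. Their summed TPM was 4747 to 5166 in the control rats and 2679 to 3303 in the treated rats at Year 0.5, and 4376 to 4959 and 2217 to 2439.6 at Year 2. All 5 alveolar type 2 markers rose at Years 0.5 and 2 and 4 of 5 at Year 1, and *Sftpc* alone was at 17721 to 20489 TPM in the control rats and 32139 to 34569.7 TPM in the treated rats of Year 2. Smooth muscle markers fell in 5 of 5 cases at each year, with a median of -0.74, -0.83, and -0.88. Of 4 fibroblast markers, 2 fell at each year and 2, 1, and 2 rose. The falls of the endothelial genes stood beside falls of type 1 and smooth muscle markers and rises of type 2 and macrophage markers, and the part of these shifts in the endothelial values was not tested.

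**Figure D5:**
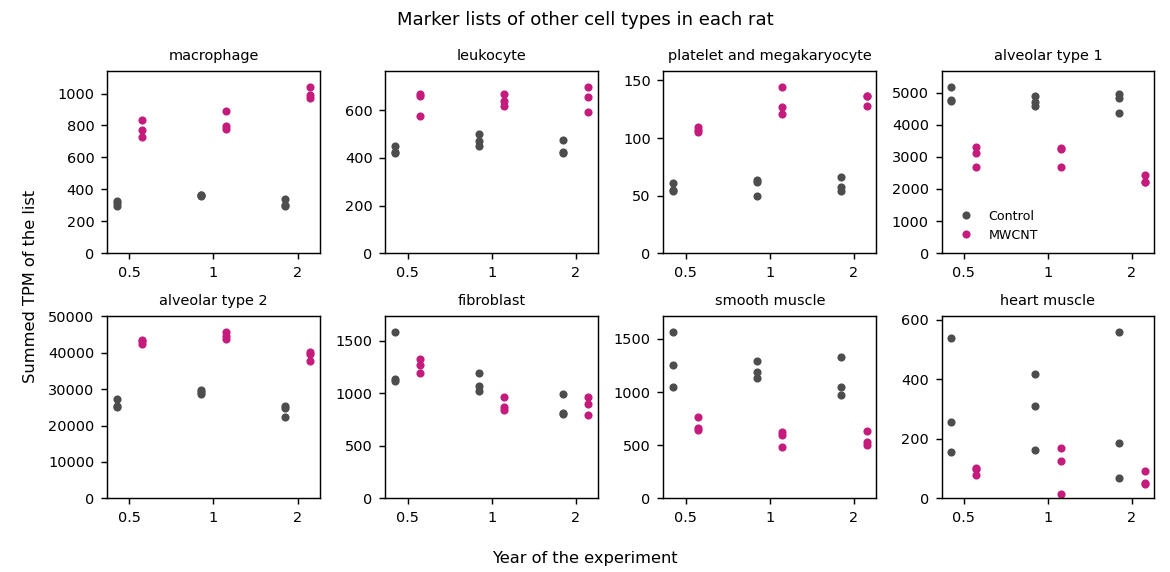
Summed TPM of marker lists of 8 other cell types (y axis, from 0, scaled for each panel) at each year (x axis), with 1 point per rat. Macrophage, leukocyte, platelet, and alveolar type 2 sums were higher in the MWCNT-treated rats, and alveolar type 1 and smooth muscle sums were lower. The higher leukocyte sum came mainly from *Lcp1*, with *Cd3e* lower at Year 2. The higher platelet sum came from *Pf4* (35.1 to 45.3 TPM in control and 121 to 132 TPM in treated rats of Year 2), while *Itga2b* and *Gp1bb* fell. Fibroblast sums overlapped at Years 0.5 and 2, and heart muscle sums varied widely between control rats.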

How the data were processed

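Per the labels, 18 libraries of rat lung RNA were sequenced, and the authors mapped the reads to the rat genome in CLC Genomics Workbench (builds named in the labels: Rnor_6.0, rn6). How reads that map to several places were treated is not given in the sources used here. The authors deposited whole-number counts per gene, TPM, RPKM, and a TMM-adjusted CPM signal. The counts and the deposited TPM were used. The deposited RPKM, CPM, and the authors' columns of fold changes and p-values were not used.

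The test was the quasi-likelihood test of edgeR 4.0.16 (R 4.3.3) after filterByExpr (minimum count 10, minimum total 15) and TMM scaling, within each year and in one model of 18 rats for time and interaction. For changes relative to the core, library factors were the geometric mean of the core gene counts plus 0.5, and 9 of the 10 core genes listed were found. FDR is Benjamini-Hochberg over all tested genes. The standard error of a change is its size over the square root of F. The procedure was tested on simulated data on the counts of Year 0.5 (14295 genes), where 98 of 100 genes changed 2-fold and 100 of 100 changed 4-fold were recovered with either scaling. The simulation gave every gene the same dispersion, changed only well-expressed genes, and kept changed genes out of the core. It thus does not cover core genes that diverge, as they did in these data. Alternatives were DESeq2 1.42.0, limma 3.58.1 on log2(TPM + 1) and log2(TPM + 0.1), other filters and scalings, the replicate number as a block, and each rat left out in turn.

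The genes and lists were chosen with earlier results of these data known. All genes of the list are named. Values per rat are given for vessel subtype genes and for those past an FDR of 0.05 and a 2-fold change at any year, the other members by counts, ranges, and the largest and smallest change of a class. Beyond this, values per rat are also given for *Tie1*, *Fli1*, and *Nos3* and, at Year 2, for *Esam*, each the smallest change of its class at that year. Of the other lists, at most 3 genes past that rule are named, besides genes whose direction or call differed from their list, which were chosen after the values were seen. The replicate numbers recur in the labels. Deviations from group means correlated at 0.0068 on average over 9 same-numbered pairs, and at -0.0032 otherwise, so the numbers were not taken to pair rats.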

Additional observations from a re-analysis of the deposited data

Results flagged for a closer look

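*Nostrin* was singled out because its treatment effect differed between Years 2 and 1 by a test of the difference itself. The difference was -0.89 ± 0.17 on the log2 scale (edgeR, FDR 0.0316), from -0.46 ± 0.08 at Year 1 to -1.36 ± 0.13 at Year 2, with all 3 treated rats below all 3 control rats at both years. The call between Years 2 and 1 was lost at an FDR below 0.01. It was also lost in most fits that left out 1 rat, where no endothelial gene was called. DESeq2 called 10 of the 33 genes for the difference between Years 2 and 1, but the share of all genes it called was not counted. Between Years 2 and 0.5 the difference of *Nostrin* was -0.67 ± 0.17 (FDR 0.0579). Groups of 3 rats were not tested for outlying samples.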

How the results depend on the processing

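The counts of endothelial genes lower with MWCNT moved little when 1 rat was left out, but much under the 2-fold criterion at Years 0.5 and 1. Leaving out 1 rat gave 28 to 30, 26 to 29, and 29 to 31 genes at Years 0.5, 1, and 2. The further 2-fold criterion lowered the count from 30 to 9 genes at Year 0.5 and from 29 to 3 at Year 1. The single gene higher at Year 2 became 0 under library size, upper quartile, DESeq2, both TPM scales, the model of 18 rats, the 2-fold criterion, and an FDR below 0.01, and ranged from 0 to 1 when 1 rat was left out. Relative to the core, an FDR below 0.01 gave 2, 2, and 9 genes at Years 0.5, 1, and 2, and leaving out 1 rat gave 1 to 6, 3 to 6, and 10 to 15. For the difference of the effect between Years 2 and 0.5, library size scaling gave 1, DESeq2 6, and leaving out 1 rat 0 to 6 genes. Between Years 2 and 1, DESeq2 gave 10, an FDR below 0.01 gave 0, and leaving out 1 rat 0 to 7. In the control rats, DESeq2 called 3 genes between Years 2 and 0.5. The shares of all genes called under these alternatives were not counted. Signs turned for *Fli1* and *Nos3* at Year 0.5 without control rat 3, within ranges of -0.46 to 0.23 and -0.26 to 0.064 when 1 rat was left out, and for *Prox1* at Year 2 under library size (-0.11), log2(TPM + 1) (-0.079), log2(TPM + 0.1) (-0.12), and without control rat 1 (-0.18) or MWCNT rat 2 (-0.10), within a range of -0.18 to 0.26 when 1 rat was left out, and none of these values was called. The cause was not tested. Of the values of single genes under all alternatives, 1466 kept direction and call, 32 lost the call, 25 gained one, and 7 turned.

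With the replicate number as a block, 2 genes changed relative to the core at Year 0.5 and 9 at Year 1, 1 gene had a different effect between Years 2 and 0.5, *Tie1* lost its Year 1 call (-0.25, FDR 0.0618), and *Gja4* gained one (-0.31, FDR 0.018). The numbers do not pair the rats. Depth limits *Prox1*, with 42 to 92 counts in a rat.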

Other observations

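Ratios between pairs of genes within a rat do not depend on the scaling of the library. The pairs were chosen after the values were seen and are given with no test. *Plvap* over *Emcn* in TPM was 19.8 ± 2.09, 22.6 ± 0.649, and 23.7 ± 6.35 (SD, n = 3) for control at Years 0.5, 1, and 2 and 12.5 ± 2.74, 12.7 ± 2.40, and 6.07 ± 1.11 for MWCNT. *Lyve1* over *Prox1* was 203 ± 27.4, 311 ± 80.4, and 185 ± 69.4 for control and 141 ± 60.0, 129.6 ± 43.5, and 39.6 ± 6.57 for MWCNT, where the groups overlapped at Year 0.5. The aerocyte gene *Apln* over the arterial gene *Gja5* was 1.596 ± 0.343, 1.32 ± 0.154, and 1.21 ± 0.192 for control and 0.894 ± 0.238, 0.854 ± 0.0287, and 0.521 ± 0.0626 for MWCNT.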
